A study of Mus musculus with 4 samples.

Results

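The VEGF and angiopoietin signalling genes are 10 of the 31053 genes counted in 4 single-cell libraries. They were chosen as a list of ligands, receptors and a co-receptor. Their values were not the rule of the choice, but earlier results of these data were known when it was made. The ligands were Vegfa, Vegfb, Vegfc, Pgf, Angpt1 and Angpt2. The receptors were Kdr, Flt1 and Tek, and Nrp1 was the co-receptor. All 10 genes had UMIs (unique molecular identifiers, each counting 1 captured mRNA molecule) in all 4 libraries.

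Mice of the strain given as VFB in the labels (FVB in the study's methods) carried a subcutaneous graft of MycCaP cells, a line derived from a Myc-driven mouse prostate cancer. The treatment, D-CAN, joins a peptide that binds adipose stromal cells (ASC) to an amphipathic sequence meant to kill them. The 4 libraries, 1 each, were tumor from control mice (given PBS), tumor after D-CAN, the stromal/vascular cells of subcutaneous adipose tissue (SAT) from controls, and SAT after D-CAN. All 4 came from tumor-bearing mice, and whether a library pooled mice was not stated. The grafted cells are 1 line, so the cancer cells of both tumor libraries share that source.

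VEGF ligands act on endothelial receptor tyrosine kinases. Vegfa binds Kdr (VEGFR2), the main signalling receptor of growing vessels, and Flt1 (VEGFR1), which binds ligand tightly and can act as a trap. Pgf and Vegfb bind Flt1, Vegfc binds Flt4 and Kdr, and Nrp1 is a co-receptor that strengthens signalling through Kdr. The angiopoietins bind Tek (Tie2): Angpt1 activates it and keeps vessels stable, while Angpt2 often opposes Angpt1 and is released by activated endothelium.

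Cells with at least 200 genes were kept, which left 8986 of 9128 cells, between 1487 and 2841 a library. Total UMIs of these cells were 17931020 and 15615176 in the control and D-CAN tumor libraries, and 6660758 and 7414246 in the control and D-CAN SAT libraries. Each cell was placed in 1 of 7 classes by markers that include none of the 10 genes. Endothelial cells also needed a UMI of Pecam1 or Cdh5. This gave 94 and 62 endothelial cells in the control and D-CAN tumor libraries, and 435 and 163 in the SAT libraries. Levels are CPM, the UMIs of a gene per 1000000 UMIs of a class in a library, with exact 95% Poisson intervals that cover counting error only. The median UMI count of an endothelial cell was 2087 and 3080 in the tumor libraries and 1335 and 4513 in the SAT libraries.

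The markers of each class were then described. They are the markers of the gate, so finding them follows in part from the gate and is no separate check. All 8 endothelial markers were found in over 10% of the endothelial cells of each library, and their summed level was close between tissues, at 5874 and 6030 CPM in tumor and 6180 and 6843 CPM in SAT. The cancer cells fitted their markers less well. Krt8 and Cldn3 were in over 96% of the epithelial-gated tumor cells, but Epcam, Krt18, Cldn7 and Cdh1 were in under 1% of them. The gate took 726 and 392 cells as epithelial and left 1051 and 490 tumor cells without a class, so values for both together are given where a result turns on them. SAT had 1 epithelial-gated cell, and the mural class (pericytes and smooth muscle) of tumor D-CAN had only 13 cells and is not described on its own. In tumor control 23 of the 39 mural cells carried 3 or more markers of another class. Their fibroblast markers summed to 5739 CPM and their mural markers to 4852 CPM. When tumor cells were clustered by expression, 114 fibroblast-gated cells lay in a Thbs4-led and 35 in an Apod-led fibroblast cluster. A further 78 lay in the mural cluster, and the rest mostly in epithelial or unnamed clusters.

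Among the ligands, Vegfa (chromosome 17, 46016993 to 46032369, minus strand) was expressed in every well-sampled class of the tumor. In tumor control its level was 40.2 CPM in myeloid cells, 39.2 in fibroblasts, 40.03 in endothelial cells and 11.2 in epithelial cells. In tumor D-CAN the same classes had 55.5, 31.4, 29.2 and 12.5 CPM. The tumor fibroblast clusters had 68.9 CPM in control and 58.2 CPM after D-CAN. The tumor mural cluster had 105.5 and 26.2 CPM, on 38 and 8 UMIs. The counting intervals of myeloid cells (30.1 to 52.6 in control) and epithelial cells (9.02 to 13.7) did not overlap, so a UMI of Vegfa was a larger part of the RNA of a myeloid cell. Epithelial cells were the most deeply sampled, however, and held 28.3% and 31.3% of the Vegfa UMIs, the most of any gated class. With the cells that had no class added, the share was 59.4% (95% Clopper-Pearson interval 53.8 to 64.8) and 56.2% (50.4 to 62.0). With more markers required for a gate, the gated class with the most Vegfa was fibroblasts in tumor control and myeloid cells in tumor D-CAN. Thinned to 1000 UMIs a cell, the class with the most Vegfa was myeloid in both tumor libraries where the cells without a class were left out of the epithelial cells. With them added, 34 and 16 cells that were epithelial-gated or without a class had a Vegfa UMI, and 24 and 12 myeloid cells. The cells without a class had a median of 19.8% and 14.4% mitochondrial UMIs.

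In SAT the highest Vegfa levels were in fibroblasts, at 66.5 CPM (45.5 to 93.8) in control and 121 CPM (90.2 to 159) after D-CAN. They held 30.2% and 45.1% of the Vegfa UMIs. Endothelial cells held 23.6% and 23.9% at levels of 21.6 and 25.4 CPM. B cells had 5.46 and 5.11 CPM and T/NK cells 7.74 and 3.87 CPM, the lowest levels of the SAT classes with a Vegfa UMI. The SAT fibroblasts fell into clusters that differed in Vegfa. A cluster led by Apod and Cxcl14 had 137 CPM (85.1 to 210.2) and 148 CPM, and a cluster with Pi16 and Sbsn among its leading genes had 36.5 CPM (19.5 to 62.5) and 84.4 CPM.

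**Figure D1:**
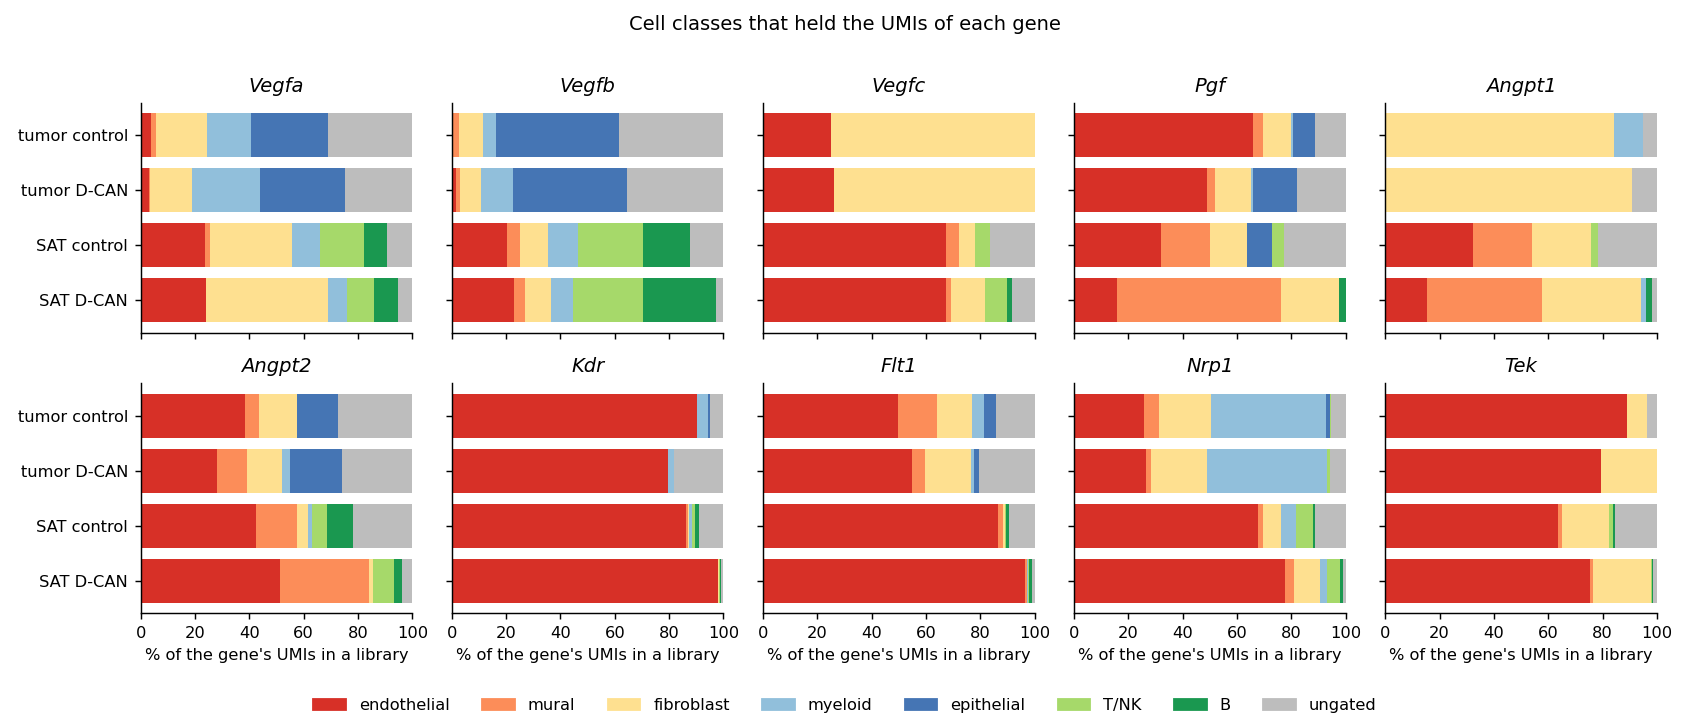
Stacked bars give the percent of the UMIs of each gene, per library, that each gated class held; grey is cells without a class. Endothelial cells hold 79.6% to 97.9% of the Kdr UMIs in the 4 libraries, while Vegfa and Vegfb have UMIs in many classes. In tumor, epithelial cells and cells without a class together hold 83.6% and 77.6% of the Vegfb UMIs, in control and D-CAN.

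Genes of the hypoxia response were compared between cells with and without a Vegfa UMI, since Vegfa is a known target of that response. The list held glycolysis and oxygen-sensing genes such as Slc2a1, Pgk1, Ldha and Egln3. In tumor myeloid cells, 8 of 8 measured list genes were higher in the 46 Vegfa-positive cells of the control library, with a median log2 ratio of 1.04. In tumor D-CAN 7 of 8 were higher in the 48 positive cells, with a median of 0.93. Bnip3 stood at 246 against 112 CPM in control and at 237 against 79.5 CPM after D-CAN. The medians over all genes were 0.02 and -0.10, and 51.3% and 42.5% of all genes were higher.

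Tumor epithelial cells gave a smaller difference in the same direction. Here 6 of 6 list genes were higher in Vegfa-positive cells in both libraries, with medians of 0.56 and 0.44, beside 0.03 and -0.04 over all genes. Of all genes 53.5% and 45.1% were higher there. Slc2a1, the main glucose transporter, had 46.0 against 20.6 CPM in control and 31.7 against 25.4 CPM after D-CAN. In fibroblast-gated tumor cells 6 of 7 and 7 of 7 list genes were higher, with medians of 1.70 and 1.59. Over all genes the medians there were 0.05 and -0.05, and 53.3% and 47.9% were higher. The fibroblast-gated tumor cells lay in several clusters, as given above. In control Vegfa was at 68.9 CPM in the fibroblast, 105.5 CPM in the mural and 12.9 CPM in the epithelial clusters. After D-CAN the same clusters had 58.2, 26.2 and 14.7 CPM. The part of cell type in these ratios was not tested. In SAT fibroblasts 1 of 4 measured list genes was higher in either library, and the medians were -0.41 and -0.14. Over all genes the medians there were 0.05 and -0.02, and 54.4% and 48.3% were higher. In every class compared the Vegfa-positive cells had more UMIs, for example a median of 2190 against 1532 in tumor control myeloid cells, and the part of depth in these ratios was not tested.

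Vegfb (chromosome 19, 6982473 to 6987651, minus strand), a Flt1 ligand, had UMIs in many classes, as had Vegfa. Its levels in the tumor classes of at least 20 cells other than endothelial cells were between 13.7 and 56.3 CPM in control. Epithelial cells held 45.0% and 42.1% of its tumor UMIs. With the cells that had no class added, the share was 83.6% (79.3 to 87.3) and 77.6% (72.7 to 82.0). Tumor endothelial cells had 1 Vegfb UMI in control (3.34 CPM) and 5 after D-CAN (16.2 CPM), and SAT endothelial cells had 15.5 and 16.0 CPM. No class of SAT held more than 27.03% of its UMIs.

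Vegfc (chromosome 8, 54077606 to 54187096, plus strand), best known as the ligand for lymphatic growth, had few UMIs: 28 and 42 in the tumor libraries and 104 and 49 in the SAT libraries. Fibroblasts held 75.0% and 73.8% of them in tumor, and endothelial cells held the rest. After thinning to 1000 UMIs a cell, endothelial cells were the class with the most Vegfc in both tumor libraries, but on very few cells. A UMI was then left in 2 endothelial cells and 1 fibroblast in control, and in 4 and 2 after D-CAN. In SAT endothelial-gated cells held 67.3% in both libraries. By cluster the SAT endothelial share was 47.1% in control and 69.4% after D-CAN, and the mural cluster held 35.6% and 4.08%. Endothelial levels were 23.3 and 35.6 CPM in tumor and 60.4 and 31.0 CPM in SAT. Fibroblast-gated tumor cells had 13.5 and 21.2 CPM, within the counting intervals of the tumor endothelium, 9.39 to 48.1 and 17.8 to 63.8. By cluster the order was the other way, with overlapping intervals. The tumor fibroblast clusters had 38.0 and 48.2 CPM, and the tumor endothelial cluster 25.2 and 37.8 CPM. No Vegfc UMI was found in the epithelial-gated tumor cells or in tumor myeloid cells, which allows at most 0.365 CPM in epithelial cells of the control library.

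Pgf (placental growth factor, chromosome 12, 85166635 to 85177790, minus strand) had more UMIs in the tumor endothelium than in the SAT endothelium. In tumor control 123 of 187 Pgf UMIs were in endothelial cells, a share of 65.8% (58.5 to 72.5) and a level of 410.3 CPM. In tumor D-CAN the endothelial share was 49.0% (38.9 to 59.2) and the level 159 CPM. The SAT endothelium had only 7 and 6 Pgf UMIs, or 6.04 and 5.64 CPM. These 7 UMIs were 31.8% of the gene's UMIs in SAT control, and the mural cells held 18.2% there and 60.5% after D-CAN. By cluster the endothelial share in SAT control was 13.6% and the mural share 59.1%. Among SAT classes of at least 20 cells the highest level was in mural cells, at 34.9 CPM in control and 124 CPM after D-CAN. Tumor mural cells of the control library had 49.3 CPM, and tumor fibroblasts had 12.2 and 8.88 CPM.

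Angpt1 (chromosome 15, 42424723 to 42676977, minus strand) lay mostly in fibroblasts in tumor, which held 84.2% and 90.9% of its 19 and 22 UMIs, at 10.3 and 13.7 CPM. In SAT the mural cells had the highest levels, 69.9 and 119 CPM, followed by fibroblasts with 16.6 and 45.2 CPM, and the intervals of these classes did not overlap after D-CAN. The endothelial-gated SAT cells held 32.4% and 15.4% of the Angpt1 UMIs. By cluster the endothelial share was 8.11% and 9.62%, and the mural cluster held 59.5% and 48.1%. That SAT mural cluster included 67 endothelial-gated cells. No tumor mural cell and no tumor endothelial cell had an Angpt1 UMI, which allows up to 21.1 CPM in the 39 tumor mural cells and 10.0 CPM in the endothelial cells of the control library. By cluster, the 160 tumor cells of the mural cluster, of which 78 were gated as fibroblasts, had 8.33 and 9.82 CPM, on 3 UMIs in each library. A fibroblast cluster led by Thbs4 and Cilp had 36.1 and 36.3 CPM.

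Angpt2 (chromosome 8, 18690263 to 18741562, minus strand) was found in endothelial, mural and other cells. Of its tumor UMIs endothelial cells held 38.4% and 28.0%, and epithelial cells and cells without a class together 42.4% and 45.0%. Endothelial cells had 127 CPM in tumor control and 90.7 in tumor D-CAN, against 26.8 and 36.7 CPM in SAT. The SAT mural cells had 96.1 and 135 CPM, above the SAT endothelium in both libraries. The tumor mural cells of the control library had 35.2 CPM, from 5 UMIs. By cluster, tumor mural cells had 47.2 and 91.7 CPM, on 17 and 28 UMIs. The tumor endothelial cluster had 133 and 96.2 CPM, on 37 and 28 UMIs. Without cells that carry 3 or more markers of another class, epithelial cells held the most Angpt2 of the gated classes in tumor D-CAN.

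**Figure D2:**
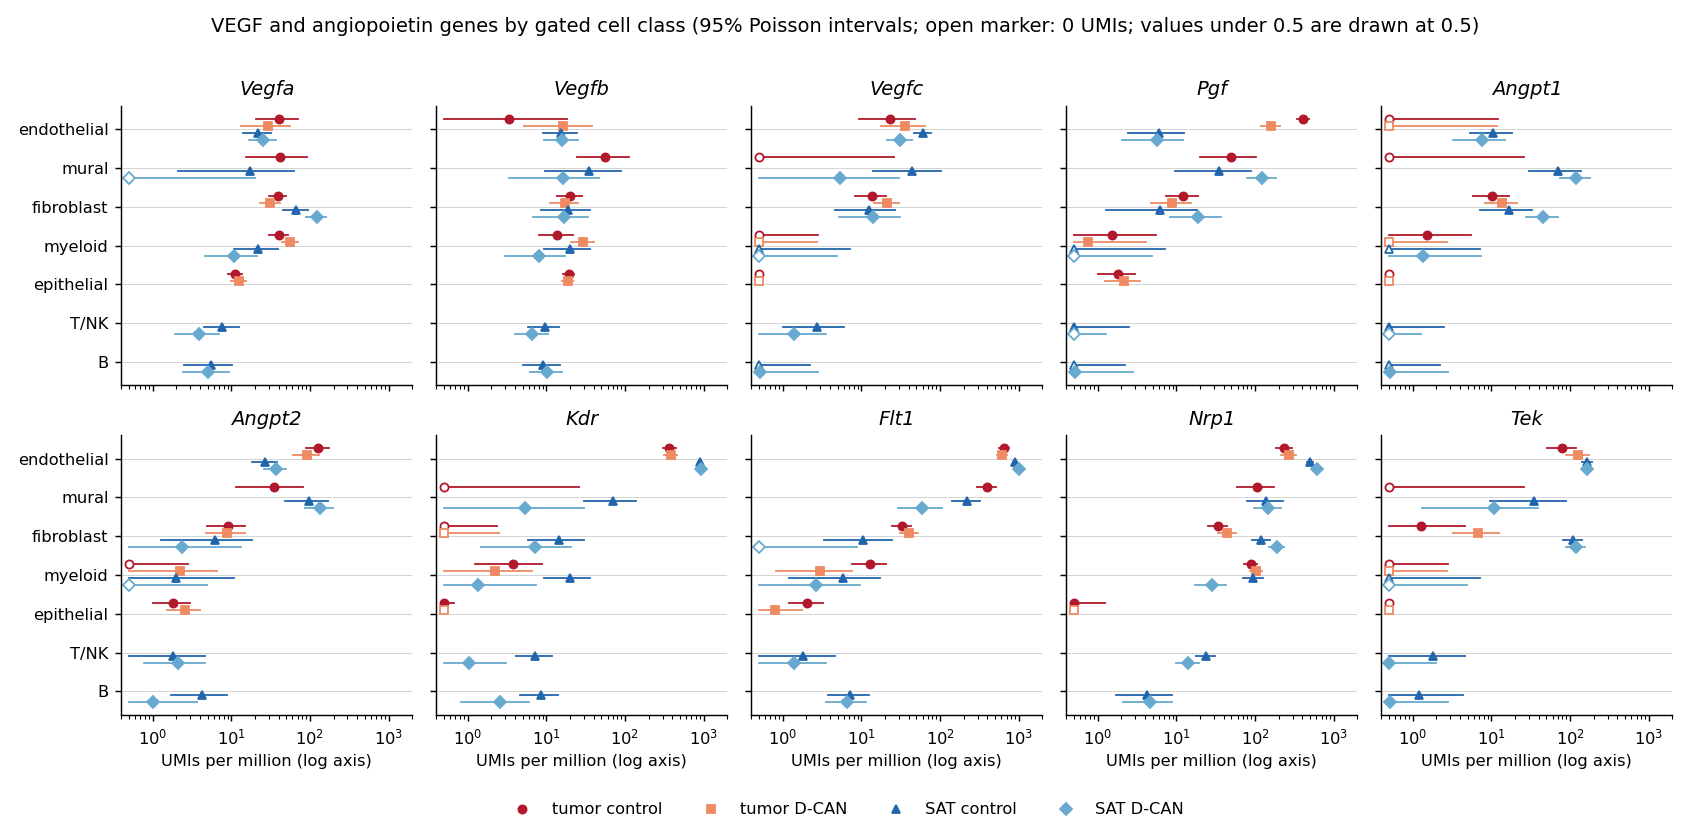
Each panel gives 1 gene; the x axis is CPM on a log axis, the rows are gated classes with at least 20 cells, the markers are the 4 libraries and the lines are 95% Poisson intervals. The receptors reach their highest levels in endothelial cells; Pgf in endothelial cells separates the tumor libraries (159 to 410.3 CPM) from the SAT libraries (5.64 to 6.04 CPM).

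Of the receptors, Kdr (chromosome 5, 75932827 to 75978458, minus strand) was the most restricted. Endothelial cells held 90.2% and 79.6% of its UMIs in tumor and 86.2% and 97.9% in SAT. In SAT D-CAN 82.2% of endothelial cells had a Kdr UMI, against 0.460% of B cells, which should lack it and here mark the background. In SAT control these shares were 56.1% and 1.10%. Median depths were 4513 and 2607 UMIs a cell in D-CAN and 1335 and 1948 in control. Tumor fibroblasts had no Kdr UMI in either library.

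Flt1 (chromosome 5, 147561604 to 147726011, minus strand) was found in a further class. Tumor mural cells of the control library had 394 CPM, on 56 UMIs and in 59.0% of the 39 cells, while Kdr had none there. Of these 39 cells 23 carried 3 or more markers of another class. The tumor cluster with mural genes had 349.8 and 383 CPM of Flt1 and 2.78 and 32.7 CPM of Kdr. Fibroblast-gated tumor cells had 32.8 and 40.3 CPM, and the tumor fibroblast clusters 23.8 and 33.2 CPM. SAT mural cells had 218 CPM in control and 59.4 after D-CAN, where Kdr moved the same way, from 69.9 to 5.40 CPM, as did the summed endothelial markers, from 812 to 491 CPM. The part of endothelial RNA in the SAT mural value was not tested. The 3′ libraries count a gene as a whole, so the membrane and the soluble forms of Flt1 cannot be told apart.

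Nrp1 (chromosome 8, 128358604 to 128503363, plus strand) was the most widely expressed receptor gene. Endothelial levels were the highest in all 4 libraries, at 237 and 269 CPM in tumor and 501 and 613 CPM in SAT. Because the tumor held many more myeloid cells, these held 42.2% and 44.1% of its tumor UMIs, at 88.1 and 104 CPM. The myeloid level differed by cluster. A tumor cluster led by Ccl8, Stab1 and Mrc1, genes of tissue macrophages, had 211 and 238 CPM, and a cluster led by the neutrophil genes S100a9 and S100a8 had 39.3 and 40.4 CPM. In SAT fibroblasts Nrp1 was at 301 and 314 CPM in the cluster led by Apod and Cxcl14, and at 56.2 and 54.9 CPM in the one with Pi16 and Sbsn among its leading genes.

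Tek (chromosome 4, 94739289 to 94874976, plus strand), the angiopoietin receptor, was endothelial in tumor, where that class held 88.9% and 79.6% of its UMIs. In SAT it was also present in fibroblasts, at 108 and 119 CPM, close to the endothelial levels of 163 and 165 CPM. Kdr in the same fibroblasts was at 14.5 and 7.13 CPM. Most of these Tek UMIs lay in 1 cluster, the one with Pi16 and Sbsn among its leading genes, with 157 CPM (119 to 204) in control and 198 CPM (146 to 264) after D-CAN. The cluster led by Apod and Cxcl14, which had the higher Nrp1 and Vegfa levels, had 6.55 and 13.9 CPM of Tek. Tumor fibroblasts had 1.28 and 6.83 CPM.

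The levels in endothelial cells were then compared between tumor and SAT. The UMIs of the endothelial cells were summed per library, and all genes were tested with edgeR's quasi-likelihood test, with treatment as a covariate and Benjamini-Hochberg adjustment. The 2 libraries of a tissue differ in treatment and stand in for replicates, which leaves 1 residual degree of freedom. The model assumes that treatment acts alike in both tissues, and the spread is borrowed across 7611 genes. The text gives the log2 fold difference, tumor over SAT, with its standard error (SE). Of all genes tested, 11.3% were higher and 10.7% lower in tumor at an adjusted p under 0.05. Of the 10 signalling genes 9 were tested, and 2 were higher and 4 lower. The median over these 9 was -0.63, beside -0.02 over all genes.

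Pgf was higher in the tumor endothelium. Its levels of 410.3 and 159 CPM in tumor did not overlap the 6.04 and 5.64 CPM in SAT. The log2 difference was 5.53 ± 0.32 (SE), with an edgeR adjusted p of 8.22e-10. Of tumor endothelial cells 29.8% and 14.5% had a Pgf UMI, against 1.38% and 1.84% in SAT. Few cells held much of the sum: 5 cells held at least 50% of the UMIs in tumor control, and a single cell held 21 of 49 UMIs in tumor D-CAN. Angpt2 was higher too, by 1.75 ± 0.31, with an edgeR adjusted p of 0.000343. DESeq2 gave an adjusted p of 0.0594 for Angpt2. Its tumor values of 127 and 90.7 CPM lay above both SAT values, 26.8 and 36.7 CPM.

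The 3 receptors and the co-receptor were all lower. Kdr was at 367 and 379 CPM in tumor and at 891 and 938 CPM in SAT. The groups did not overlap, and the difference was -1.32 ± 0.17, with an edgeR adjusted p of 1.53e-05. Nrp1 differed by -1.17 ± 0.18, with an adjusted p of 0.000106. Flt1 was at 650.5 and 619 CPM in tumor and at 905 and 1022 CPM in SAT, and differed by -0.63 ± 0.17, with an adjusted p of 0.0116. Tek was at 80.1 and 126 CPM in tumor and at 163 and 165 CPM in SAT, with a difference of -0.71 ± 0.23 and an adjusted p of 0.0322. Flt1 and Tek did not pass under several other settings: DESeq2 gave adjusted p of 0.149 for Flt1 and 0.623 for Tek, and without the tumor D-CAN library Flt1 had 0.0874. Without the tumor control library Tek had 0.364, and without the SAT D-CAN library 0.0645. These fits without a library had no treatment term, and the lone library of a tissue was assumed to vary like the other tissue's pair.

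Vegfa, Vegfb and Vegfc did not pass. Their log2 differences were 0.53 ± 0.42, -0.72 ± 0.65 and -0.62 ± 0.42, and their edgeR adjusted p-values were 0.418, 0.475 and 0.316. The SAT values of Vegfc, 60.4 and 31.0 CPM, lay on both sides of the tumor D-CAN value of 35.6 CPM. Angpt1 was too low to be tested, with no UMI in tumor and 12 and 8 UMIs in SAT.

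**Figure D3:**
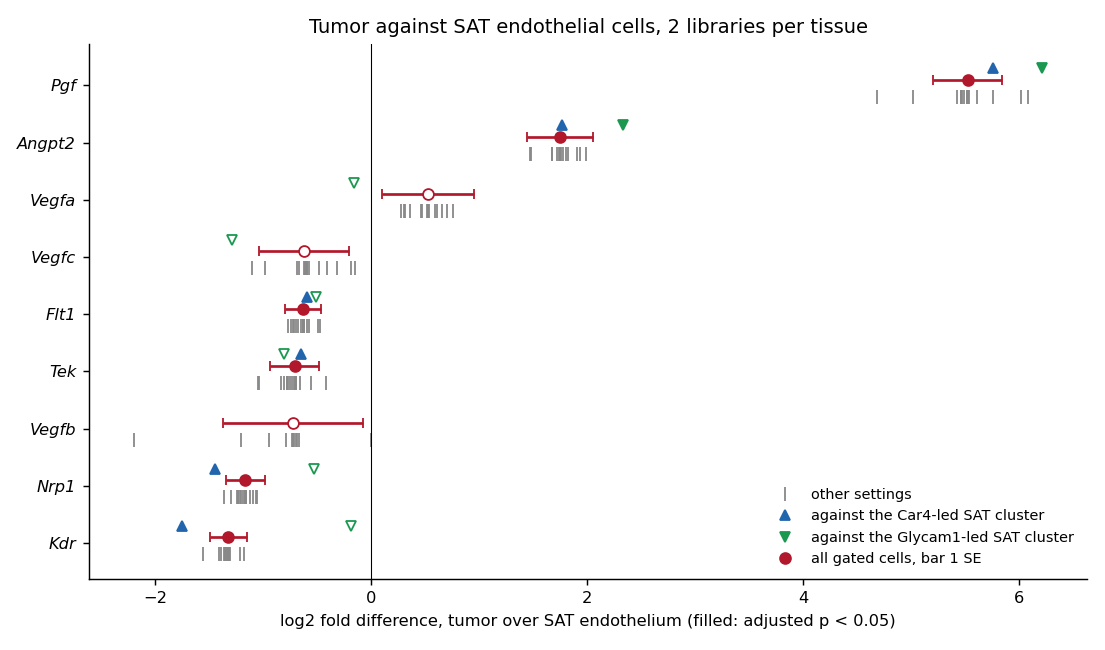
Red points give the log2 fold difference of tumor over SAT endothelial cells with 1 SE; grey ticks are the other settings, and triangles set the tumor endothelial cluster against a single SAT endothelial cluster; filled symbols have an adjusted p under 0.05. Pgf (5.53) and Angpt2 (1.75) lie to the right under all settings, and the Kdr difference of -1.32 shrinks to -0.19 against the Glycam1-led SAT cluster.

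The SAT endothelium was not 1 population. A cluster led by Glycam1, Selp and Vwf, genes of venules, and a cluster led by Car4, Gpihbp1 and Btnl9, genes of capillaries, differed in the signalling genes, which had been kept out of the clustering. Kdr was at 389 and 523 CPM in the Glycam1-led cluster and at 1536 and 1270 CPM in the Car4-led cluster, with intervals far apart. The tumor endothelial cluster had 396 and 450 CPM. Vegfc had the opposite order, with 81.7 and 64.3 CPM in the Glycam1-led and 10.3 and 7.55 CPM in the Car4-led cluster. Flt1 hardly differed, at 936 and 966 CPM against 1054 and 1050 CPM, and Tek lay between 163 and 189.8 CPM in both clusters and libraries. Another SAT endothelial cluster led by Car3, of 221 and 19 cells, had 695.5 CPM of Kdr in control and was not compared with the tumor cluster.

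The tumor cluster was set against each of these SAT clusters, chosen after these levels were seen. The differences of Kdr and Nrp1 depended on the SAT cluster, while those of Flt1 and Tek changed little in size. Against the Car4-led cluster Kdr differed by -1.76 (edgeR adjusted p = 1.09e-07) and Nrp1 by -1.44 (2.68e-06). Flt1, at -0.60, and Tek, at -0.65, also passed. Against the Glycam1-led cluster none of the 4 passed: Kdr differed by -0.19 (0.526), Nrp1 by -0.53 (0.114), Flt1 by -0.51 (0.088) and Tek by -0.81 (0.114). Pgf and Angpt2 passed in both, with Pgf at 6.21 and 5.76 and Angpt2 at 2.34 and 1.77. Restricting all libraries to endothelial cells with a Gpihbp1 UMI kept all 6 calls. The summed capillary markers were lower in the tumor endothelium, at 2715 and 3224 CPM against 9228 and 10616 CPM, and so were the venous markers, at 400.3 and 723 CPM against 1350 and 2029 CPM, including Glycam1 with no UMI in tumor and 446 and 960.4 CPM in SAT. Gpihbp1 itself was near in both tissues, at 1341 and 1358 CPM in tumor and 1477 and 1659 CPM in SAT. Only 2.30% and 5.52% of SAT endothelial cells had a Glycam1 UMI. Of 6 venous markers tested 5 were lower. Lrg1 did not pass, at 300 and 522 CPM in tumor and 393 and 498 CPM in SAT. Without thinning, 30.9% and 61.3% of tumor endothelial cells had a venous marker UMI, and 28.0% and 31.3% in SAT.

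**Figure D4:**
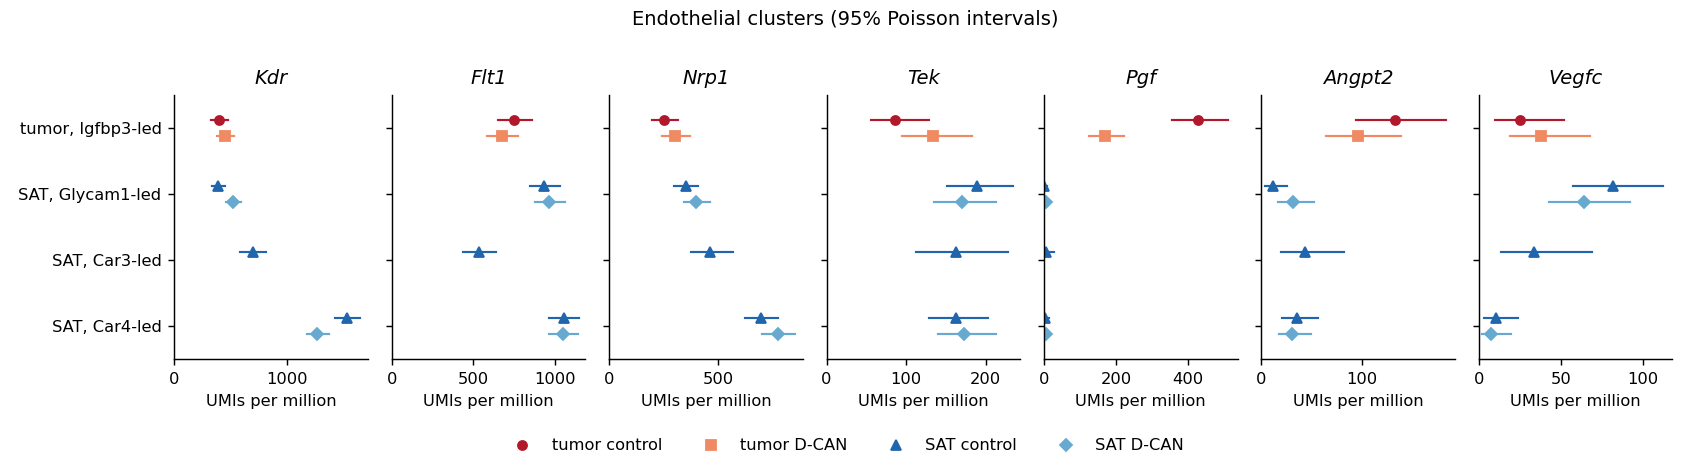
Levels in CPM, with 95% Poisson intervals, of 7 genes in the endothelial clusters with at least 20 cells in a library, named by tissue and leading gene. Kdr in the tumor cluster (396 and 450 CPM) lies near the Glycam1-led SAT cluster (389 and 523 CPM) and below the Car4-led one, and Pgf is highest in the tumor cluster (428 and 168 CPM).

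For Kdr, Flt1 and Tek the promoter sequences from RefSeq (GRCm38.p6) are shown, 250 bases before the annotated start, 5′ to 3′ on the gene's strand. The windows are chr5:75978456-75978705 (minus strand) for Kdr, chr5:147726012-147726261 (minus strand) for Flt1 and chr4:94739039-94739288 (plus strand) for Tek. Nrp1 is not shown, because its window lies inside the gene as given above. Capitals mark GGAAG, the core of sites for ETS factors, a family that binds many endothelial promoters, searched on both strands so that CTTCC is also marked.
Kdr: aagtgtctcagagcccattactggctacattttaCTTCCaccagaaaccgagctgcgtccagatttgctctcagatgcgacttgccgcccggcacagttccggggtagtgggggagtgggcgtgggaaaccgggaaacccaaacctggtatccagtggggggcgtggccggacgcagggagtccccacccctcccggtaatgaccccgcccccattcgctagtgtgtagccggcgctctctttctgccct
Flt1: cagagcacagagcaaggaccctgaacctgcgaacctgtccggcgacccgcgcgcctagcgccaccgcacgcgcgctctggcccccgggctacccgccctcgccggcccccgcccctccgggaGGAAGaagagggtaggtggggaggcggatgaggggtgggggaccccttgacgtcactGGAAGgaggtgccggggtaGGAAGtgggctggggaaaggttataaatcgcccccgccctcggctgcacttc
Tek: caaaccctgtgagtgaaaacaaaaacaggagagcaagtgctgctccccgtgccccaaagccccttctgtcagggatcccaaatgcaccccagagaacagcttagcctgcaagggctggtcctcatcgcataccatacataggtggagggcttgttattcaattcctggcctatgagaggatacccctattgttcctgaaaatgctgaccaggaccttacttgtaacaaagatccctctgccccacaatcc
The Kdr window held 1 match and the Flt1 window 3, and the Tek window held none. Of all 32851 promoter windows of this length 64.1% held the same letters, so a match is common. The GC content was 61.6%, 70.4% and 51.2%, beside a median of 52.4% over all windows. None of the 3 windows held ACGTG, the core of the hypoxia response element, which 16.6% of all windows held.

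Of a list of 6 other genes of the pathway 4 were tested, with 1 higher and 1 lower. Over all genes tested 11.3% were higher and 10.7% lower. Flt4 (VEGFR3), the main Vegfc receptor, was higher in the tumor endothelium by 1.43 ± 0.35 (edgeR adjusted p = 0.00573), at 107 and 58.3 CPM against 25.9 and 33.8 CPM. Ptprb (VE-PTP), a phosphatase that restrains Tek and Kdr, was lower, with a log2 difference of -1.26 ± 0.18 and an edgeR adjusted p of 3.17e-05. Tie1, the partner of Tek, and Nrp2 did not pass, with log2 differences of 0.18 ± 0.19 and -0.00 ± 0.19. Of 13 genes that carry VEGF receptor signals inside the cell, 10 were tested, with 2 higher and 1 lower. These counts are near the shares over all genes, and the median of the list was -0.04, beside -0.02 over all genes. Fyn was higher by 1.21 and Mapkapk2 by 0.88, and Plcg1, the phospholipase recruited to Kdr, was lower by 1.04, at 33.4 and 45.4 CPM against 71.6 and 86.5 CPM.

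Genes of endothelial tip cells, the leading cells of a sprout, were mostly higher in tumor. Of 15 genes tested, 11 were higher and none lower, with a median of 1.56 beside -0.02 over all genes. Of all genes 11.3% were higher. This list and the hypoxia list were chosen with earlier results of these data known. Kcne3 was at 233 and 87.5 CPM in tumor against 2.59 and 6.58 CPM in SAT, Apln at 217 and 191 against 13.8 and 20.7 CPM, and Nid2 at 280.2 and 130 against 14.7 and 20.7 CPM. Mcam was at 357 and 256 CPM in tumor and at 38.0 and 46.0 CPM in SAT, and 4 of the 15 did not pass. Of the hypoxia list 8 genes were tested in the endothelium and 7 were higher, with a median of 1.72. Egln3, an oxygen sensor, had 96.7 and 35.6 CPM in tumor, and 0 and 0.940 CPM in SAT.

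Within the tumor endothelium some cells had UMIs of both Pgf and Angpt2. In control, 15 of the 28 cells with a Pgf UMI also had one of Angpt2, out of 20 Angpt2-positive cells among 94. In D-CAN, 6 of 9 Pgf-positive cells had both, out of 16 Angpt2-positive cells among 62. Thinned to 1000 UMIs a cell, 17 of 82 control cells had a Pgf UMI, 9 had one of Angpt2 and 3 had both. In D-CAN these were 4, 5 and 1 of 52 cells, too few to say how often the genes share a cell. All Pgf UMIs of the tumor endothelium lay in cells with a Gpihbp1 UMI. In control the Pgf-positive cells had less Tek than the Pgf-negative cells, 19.6 against 143 CPM, and less Kdr, 255 against 483 CPM, while Flt1 was alike at 648 and 653 CPM. Their median depth was 4072 against 1824 UMIs, and deeper cells reach a UMI more often. Tip cell genes summed to 4614 CPM in Pgf-positive and 3054 CPM in Pgf-negative cells of the control library, and to 4114 and 2583 CPM in D-CAN. Fibroblast markers were also higher in the Pgf-positive cells, at 622 against 116 CPM in control and 1690 against 203 CPM in D-CAN, and the mural markers of the Angpt2-positive cells of tumor D-CAN summed to 1951 CPM against 5.54 CPM in the others. The part of such mixed cells in the levels was not tested. In tumor, 5 and 6 endothelial cells carried 3 or more markers of another class, among them 2 of the 9 Pgf-positive cells of D-CAN. Without such cells in any library the tumor over SAT differences were 5.76 for Pgf and 1.72 for Angpt2.

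Detection of the receptors per cell was compared after thinning each cell to 1000 UMIs. Neither Kdr nor Flt1 was then found in 42.7% (31.8 to 54.1) and 38.5% (25.3 to 53.0) of tumor endothelial cells, and in 22.2% (17.5 to 27.5) and 20.3% (14.2 to 27.5) of SAT endothelial cells, in control and D-CAN. Without thinning the shares were 23.4%, 11.3%, 20.5% and 6.75%. The thinned counts were 35 of 82, 20 of 52, 63 of 284 and 31 of 153 cells, and shallower cells were left out.

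The genes closest to each member in pattern, by Pearson r of log2(CPM + 1) over 21 class and library sums, were mostly endothelial for the receptors. Kdr was nearest to Cd300lg (r = 0.97), Flt1 to Adgrf5 (0.98), Nrp1 to Acvrl1 (0.97) and Tek to Limch1 (0.98). Angpt2 was nearest to Adamts4 (0.95) and Pgf to Col18a1 (0.93) and Abcc9 (0.92). Vegfc was nearest to Zfp462 (0.94) and Angpt1 to Ntrk2 (0.92). Vegfa and Vegfb had weaker neighbours, Naglu at 0.88 and Dzip3 at 0.84. The sums share 4 libraries and their depths, so the values are a description.

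D-CAN and control were compared within a tissue and class. With 1 library each there is no replicate and no test. A gene with at least 20 UMIs over both libraries was counted as past the threshold at a log2 ratio of 1 or more in size, and the intervals cover counting error only. This was reached in 8 of 48 gene and class pairs, 3 higher and 5 lower after D-CAN. Over all genes of a class, between 0.834% and 7.07% reached it in a given direction, as listed by class below.

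In the endothelium the receptors stayed below it in both tissues. The log2 ratios in tumor were 0.05 for Kdr (-0.34 to 0.44), -0.07 for Flt1 (-0.37 to 0.22), 0.18 for Nrp1 and 0.65 for Tek (-0.11 to 1.46). In SAT they were 0.07, 0.18, 0.29 and 0.02. No signalling gene was past the threshold upward in the tumor endothelium, where 3.74% of all genes were, and none in either direction in the SAT endothelium, where 1.91% were higher and 2.26% lower. None was past it in tumor fibroblasts, beside 2.27% of genes higher and 1.78% lower, in SAT T/NK cells, beside 1.35% and 2.24%, or in SAT B cells, beside 1.87% and 2.46%.

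Pgf in the tumor endothelium was lower after D-CAN, at 159 against 410.3 CPM, a log2 ratio of -1.36 (-1.88 to -0.88). Of all genes in that class 2.79% were lower past the threshold. As given above, 1 cell held 21 of the 49 UMIs after D-CAN. With both Pecam1 and Cdh5 required the ratio was -2.12. Among tip cell genes in the same cells, Kcne3 had 233 CPM in control and 87.5 CPM after D-CAN, and Apln had 217 and 191 CPM. Nid2 had 280 and 130 CPM, and Mcam 357 and 256 CPM. Most other genes of that list were also lower after D-CAN, but not all. Vegfc in the SAT endothelium had a ratio of -0.95 (-1.61 to -0.35), just under the threshold, which it reached in cells with at least 500 genes. Within the Glycam1-led cluster Vegfc was at 81.7 CPM in control and 64.3 CPM after D-CAN. In the SAT mural cluster, which held 67 endothelial-gated cells, it was at 94.2 CPM on 37 UMIs in control and at 7.25 CPM on 2 UMIs after D-CAN.

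In the SAT stroma Angpt1 of fibroblasts was higher after D-CAN, at 45.2 against 16.6 CPM, a ratio of 1.39 (0.18 to 2.84) on 19 and 8 UMIs. Of all genes there 4.49% were higher and 5.86% lower past the threshold. Within the cluster led by Apod and Cxcl14 Angpt1 was at 83.2 against 26.2 CPM. That cluster had 67 cells in control and 43 after D-CAN, while the cluster with Pi16 and Sbsn among its leading genes had 196 and 44. Vegfa in fibroblasts had a ratio of 0.86 (0.20 to 1.55), and within the Apod and Cxcl14 cluster it was at 137 CPM in control and 148 CPM after D-CAN. Pgf of mural cells was at 124 against 34.9 CPM, a ratio of 1.69 (0.28 to 3.82), where 7.07% of genes were higher past the threshold, and Flt1 there was lower by 1.84, with 4.18% of genes lower past it. By cluster the Flt1 ratio was 0.11, the other way.

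In myeloid cells Nrp1 was lower in SAT after D-CAN, at 28.2 against 94.8 CPM, a ratio of -1.73 (-2.56 to -0.98), and 6.25% of genes were lower and 4.29% higher past the threshold. In tumor myeloid cells Vegfb was higher by 1.08 (0.26 to 1.99) and Flt1 lower by 1.98, on 17 and 4 UMIs, where 1.41% and 1.76% of genes were past the threshold in these directions. In tumor epithelial cells Flt1 was lower by 1.29, on 17 and 6 UMIs, with an interval that reached 0.05, beside 0.834% of genes lower and 0.939% higher past the threshold.

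**Figure D5:**
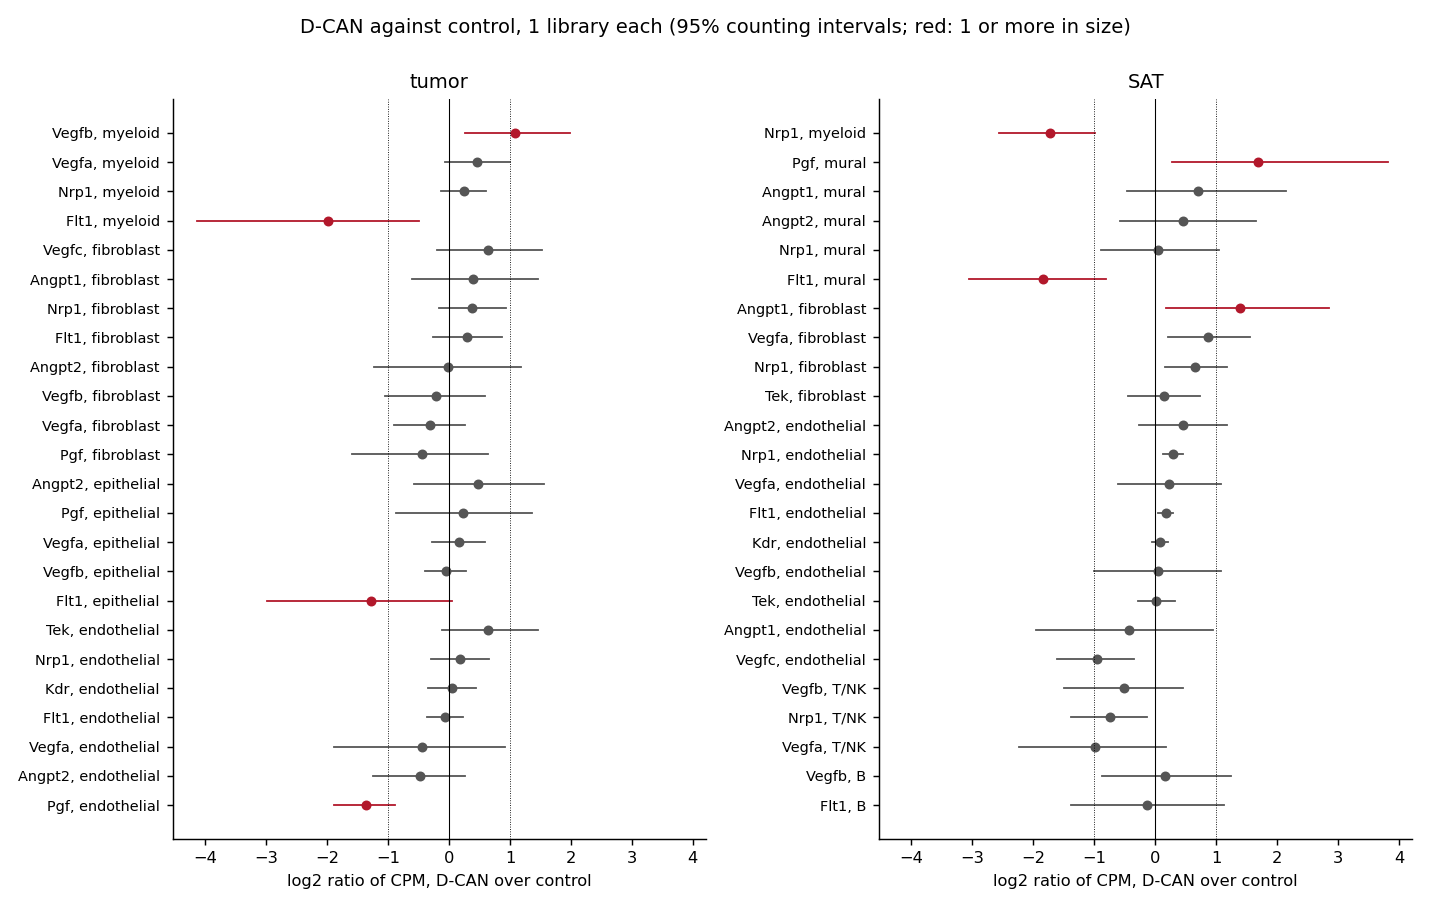
Points give the log2 ratio of CPM, D-CAN over control, for each gene and gated class with at least 20 UMIs over both libraries, tumor on the left and SAT on the right; lines are 95% counting intervals, dotted lines mark 1 in size and red marks the 8 of 48 pairs that reached it. Kdr, Flt1, Nrp1 and Tek in endothelial cells lie between the dotted lines in both tissues. Over all genes of a class, 0.834% to 7.07% reached 1 in size in a given direction.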

How the data were processed

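The authors deposited UMI counts per gene and cell, 1 matrix a library, for 31053 genes of mm10. They were made with Cell Ranger 3.1.0 and STAR 2.6 per the processing notes, after dead and red blood cells had been removed. The header of the SAT D-CAN matrix names an earlier Cell Ranger version. Nothing else was done to the deposited counts.

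Cells with at least 200 genes were kept. A cell was gated to a class with at least 2 of its 8 markers detected and at least 1 more than of any other of the 7 classes. No doublet caller was run; cells with 3 or more markers of another class (mixed cells) were left out in an alternative. In all, 14 cells shared a barcode with a cell of another library. Clusters were made per tissue with Seurat 5.3.0 (10 components, resolution 0.8), with the signalling genes left out of the variable genes, and named from the same markers.

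Tumor and SAT endothelial sums were compared with edgeR 4.0.16 (TMM, quasi-likelihood test, treatment as covariate, R 4.3.3) and, as an alternative, DESeq2 1.42.0, with Benjamini-Hochberg adjustment over all genes tested. D-CAN and control, with 1 library each, were compared as log2 ratios with 0.5 UMI added and no test. The scripts were tested on simulated data for tumor against SAT endothelium. At a set log2 change of 1, 13 of 95 changed genes were called in the set direction. At a change of 2, 72 of 91 were. Of 7308 unchanged genes 4 were called, so differences of about 1 are often missed. Intervals are exact Poisson (levels) or Clopper-Pearson (shares) at 95%, and a count of 0 was taken to allow 3 counts. Both kinds take each UMI or cell as independent and cover counting error only, so they are too narrow where few cells hold many UMIs. The depth per library is given in the report.

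The genes and lists were chosen with earlier results of these data known. All 10 signalling genes are described, and up to 4 genes of each list are named, those with the largest log2 difference. For each signalling gene the most similar genes by Pearson r were looked up. The alternatives changed the normalization, test, filters, gate, cell classes and libraries.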

Additional observations from a re-analysis of the deposited data

Results flagged for a closer look

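Nrp1 in myeloid cells had log2 ratios of opposite sign in the tissues. Set against control, the D-CAN library had a log2 ratio of 0.24 in tumor, from 88.1 to 104 CPM, and -1.73 in SAT, from 94.8 to 28.2 CPM. The tumor ratio had a counting interval of -0.12 to 0.61 and was not past the threshold, and the SAT ratio one of -2.56 to -0.98. With 1 library for each group the difference between the tissues was not tested. Median depth of the SAT myeloid cells was 1291 UMIs in control and 5250 after D-CAN, and their summed myeloid markers were 14315 and 7772 CPM. The part of these in the ratio was not tested.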

How the results depend on the processing

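Pgf was higher in the tumor endothelium in all 18 alternatives, with a log2 difference from 4.68 to 6.21. The number of genes higher in tumor, 858, was 234 with the DESeq2 Wald test and 279 against the Glycam1-led SAT cluster, an alternative added after seeing the data. The number lower, 814, was 191 and 340 in these. Leaving out 1 library, in a fit with no treatment term, gave 463 to 745 genes higher and 559 to 802 lower, and the lowest values came without the SAT D-CAN library. With no filter on low counts 15447 genes were tested. Against the Glycam1-led cluster Vegfa had the opposite sign, -0.16. Flt1 did not pass with both Pecam1 and Cdh5 required (edgeR adjusted p = 0.0539) or with clusters (0.0628), and Tek did not pass without mixed cells (0.142). The causes were not tested.

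Between D-CAN and control, 1 endothelial pair of gene and tissue was past the threshold, and 2 were with both Pecam1 and Cdh5 required, with at most 20% mitochondrial UMIs and with at least 500 genes. Flt1 in SAT mural cells had the opposite sign with clusters, 0.11. Pgf in the tumor endothelium ranged from -2.12 to -1.34, and Vegfb in tumor myeloid cells was past the threshold in 4 of 7 alternatives. The class with the most UMIs of a gene was the same in 29 of 40 gene and library pairs after thinning. No paired analysis was possible because each group has 1 library.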
